A study of Mus musculus with 9 samples.

Results

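IL-6 and IL-12 family cytokines were followed in BV-2, an immortalized line of mouse microglial cells. The 6 genes Il6, Il12b, Il23a, Il27, Il6ra and Il6st were listed by name, with earlier results of these data known. The deposited table of 12413 gene symbols held 5 of them, namely the 4 ligand genes Il6, Il12b, Il23a and Il27 and the receptor gene Il6st. Il6ra was not analysed here, so the receptor side rests on 1 gene. The mRNA of 3 groups was sequenced, with 3 libraries in each. By the study's methods, BHB cells received LPS at 1 μg/mL with R-3-hydroxybutyric acid (β-hydroxybutyrate, a ketone body) at 1.5 mM. Medium cells received LPS alone at 1 μg/mL, and Control cells were labelled PBS. The paper's results name PBS (phosphate-buffered saline) as the treatment of LPS-stimulated cells given no BHB. LPS (lipopolysaccharide), from the outer membrane of bacteria, is sensed by TLR4 on microglia. All groups came from the same cell line, and the time of exposure was not given in the sources used here. The statistical methods speak of independent biological replicates for the study as a whole, but the labels do not tie the libraries to separate cultures, so each p-value is set against a spread among libraries that may be technical.

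Cytokines of this family share receptor parts. IL-6, a helical cytokine made by activated microglia and macrophages, binds its own receptor chain (encoded by Il6ra) and then gp130, the signalling chain encoded by Il6st that LIF, oncostatin M and IL-27 also use. IL-12, IL-23 and IL-27 are secreted as pairs of proteins: p40 (Il12b) pairs with p35 to make IL-12 and with p19 (Il23a) to make IL-23, and p28 (Il27) pairs with EBI3 to make IL-27. The receptors signal through JAK kinases and STAT transcription factors, and the ligand genes are transcribed through NF-κB, C/EBP and related factors after LPS is sensed. The mRNAs of many cytokines are short-lived because decay factors bind AU-rich sites after the coding sequence.

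In GENCODE M21 on GRCm38, all 5 genes are protein-coding. Il6 lies on the plus strand of chromosome 5 from 30013114 to 30019981, Il12b on the plus strand of chromosome 11 from 44400063 to 44414033, and Il6st on the plus strand of chromosome 13 from 112464070 to 112510086. Il23a lies on the minus strand of chromosome 10 from 128296139 to 128298752, and Il27 on the minus strand of chromosome 7 from 126589010 to 126594941. The end of Il27 shares 103 bp of exon with Apobr, a gene on the plus strand with 2849 to 4846 counts per library, against 0 to 34 counts for Il27. The methods name a strand-specific alignment but not how reads were counted, so those in the shared stretch could belong to either gene. RefSeq promoters of GRCm38.p6 were matched for Il6, Il12b and Il6st, and their 250 bases before the start site are shown here because these are the ligand with the highest level after LPS, the ligand with the largest fold decrease under BHB, and the receptor chain. Capitals mark the letters of a motif.
Il6 promoter (chr5:30012864-30013113, plus strand): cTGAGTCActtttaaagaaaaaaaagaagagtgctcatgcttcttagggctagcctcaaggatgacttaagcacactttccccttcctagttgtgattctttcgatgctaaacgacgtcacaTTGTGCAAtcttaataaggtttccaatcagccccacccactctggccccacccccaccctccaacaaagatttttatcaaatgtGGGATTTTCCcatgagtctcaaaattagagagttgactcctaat
Il12b promoter (chr11:44399813-44400062, plus strand): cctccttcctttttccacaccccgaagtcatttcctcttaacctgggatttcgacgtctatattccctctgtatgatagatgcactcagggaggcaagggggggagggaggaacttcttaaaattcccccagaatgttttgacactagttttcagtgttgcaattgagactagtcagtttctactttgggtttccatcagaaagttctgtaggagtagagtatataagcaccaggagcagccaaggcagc
Il6st promoter (chr13:112463820-112464069, plus strand): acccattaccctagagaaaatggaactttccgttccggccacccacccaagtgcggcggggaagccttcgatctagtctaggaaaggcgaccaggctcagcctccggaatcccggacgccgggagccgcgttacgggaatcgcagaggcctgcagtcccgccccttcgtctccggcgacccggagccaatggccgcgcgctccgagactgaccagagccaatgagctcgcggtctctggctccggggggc
In the Il6 promoter, capitals are an AP-1 motif (TGANTCA) from 249 to 243 bases before the start, a C/EBP motif (TTNNGCAA) from 128 to 121 and the NF-κB consensus from 44 to 35. Both strands were searched, and the motifs found do not overlap each other. Of 32851 promoters of the same length, 6.75% held the AP-1 motif, 9.56% the C/EBP motif and 3.9% the NF-κB consensus. The Il12b and Il6st windows held none of these letters, nor did any of the 3 windows hold the CRE letters TGACGTCA, which 1.55% of promoters held, an ISRE (2.98%) or the TATA box letters TATAAA (12.4%).

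The 4 ligand members also held a sequence after the stop codon that Il6st did not. In the transcript with the longest coding sequence, the sequence TATTTAT, which the decay factor tristetraprolin can bind as RNA, occurred 1 time in Il6, 1 time in Il12b, 5 times in Il23a and 4 times in Il27. It did not occur in the 5641 bases of the Il6st 3′ UTR, although that is the longest of the 5 (285 to 797 bases in the ligand genes). The shorter AU-rich core ATTTA, which TATTTAT contains, occurred 14.1, 7.53, 9.13 and 17.5 times per kb in Il6, Il12b, Il23a and Il27, against 1.6 times per kb in Il6st. Over 15609 genes with a 3′ UTR of at least 300 bases, 6.86% held TATTTAT in the first 300 bases, as Il6 and Il12b did. ATTTA was held there by 34% of these genes, with 4 copies in Il6, 5 in Il12b, 0 in Il23a and 1 in Il6st. For whole 3′ UTRs, no share over all genes was at hand. The sites of Il23a lay further downstream, and the 3′ UTR of Il27 was shorter than that window. A site from each ligand gene is shown to let the flanks be compared, with the 7 letters of that site in capitals. The Il23a and Il27 stretches each hold a further copy that is not marked. In Il27 that copy, the third, overlaps the marked copy, and the count of 4 includes both.
Il6 site (chromosome 5): tttatgattgaTATTTATtatttttatga
Il12b site (chromosome 11): agtaatttatgTATTTATtaatttatttc
Il23a site, the third of 5 (chromosome 10): tagatgatggtTATTTATtctatttataa
Il27 site, the second of 4 (chromosome 7): tatttcttggaTATTTATttatttttaag

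Library totals ranged from 23411672 to 32767278 counts. Levels are given as CPM, counts per 1000000 of the TMM-scaled library total, and 1 CPM stood for 23.8 to 31.4 counts. Among the Medium libraries, replicate 3 differed most: its counts gave chi-square values of 32.5 and 28.7 per degree of freedom against the others, which gave 4.29 between them. Values without it are given for the genes and lists where it moved them most. The microglial label fitted the markers in part. All 13 listed markers of microglia and macrophages were in the table, with a summed level of 3430 to 3680 CPM in BHB, 2690 to 3480 CPM in Medium and 3450 to 3650 CPM in Control. Much of that sum was Cd68, at 1070 to 1560 CPM in Medium, and Itgam, at 494 to 568 CPM there. Tmem119 reached at most 2.17 CPM and Aif1, the gene of Iba-1, at most 2.07 CPM. P2ry12 had at most 28 counts in a library and did not pass the filter. With BHB, 9 of the 12 tested markers were called higher than in Medium and 2 lower (8 and 3 of 13 without Medium replicate 3). Medium against Control gave 2 higher and 7 lower (3 and 8 of 13). Over all tested genes, 33.2% were called higher and 33.6% lower with BHB, and 36.3% each way with LPS. The part of the markers in the members' results was not tested. Summed markers of T cells, which express IL-12 receptors, reached at most 0.382 CPM in any library, from the 1 of 5 listed genes in the table. With 3 of 5 listed genes each, astrocyte markers reached at most 0.616 CPM, neuron markers 0.834 CPM, endothelial markers 0.738 CPM and oligodendrocyte markers 8.18 CPM. In bulk RNA, fewer expressing cells and less mRNA per cell cannot be told apart.

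In cells given BHB with LPS, all 5 members were lower than in cells given LPS alone. The fall was 16.2-fold for Il12b, 6.9-fold for Il27, 6.81-fold for Il6, 2.29-fold for Il6st and 1.56-fold for Il23a. The question of this comparison was what BHB changes in LPS-activated microglia. For each member, every BHB library lay below every Medium library. Of all 10413 genes tested, 33.6% were called lower in BHB and 34% had non-overlapping groups with BHB lower (34% with BHB higher), so single genes with such a result were common. The 5 calls were kept when any library was left out. Il12b and Il27 had enough libraries to pass the filter on low counts in Medium alone, so their differences are in part what let them be tested.

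**Figure D1:**
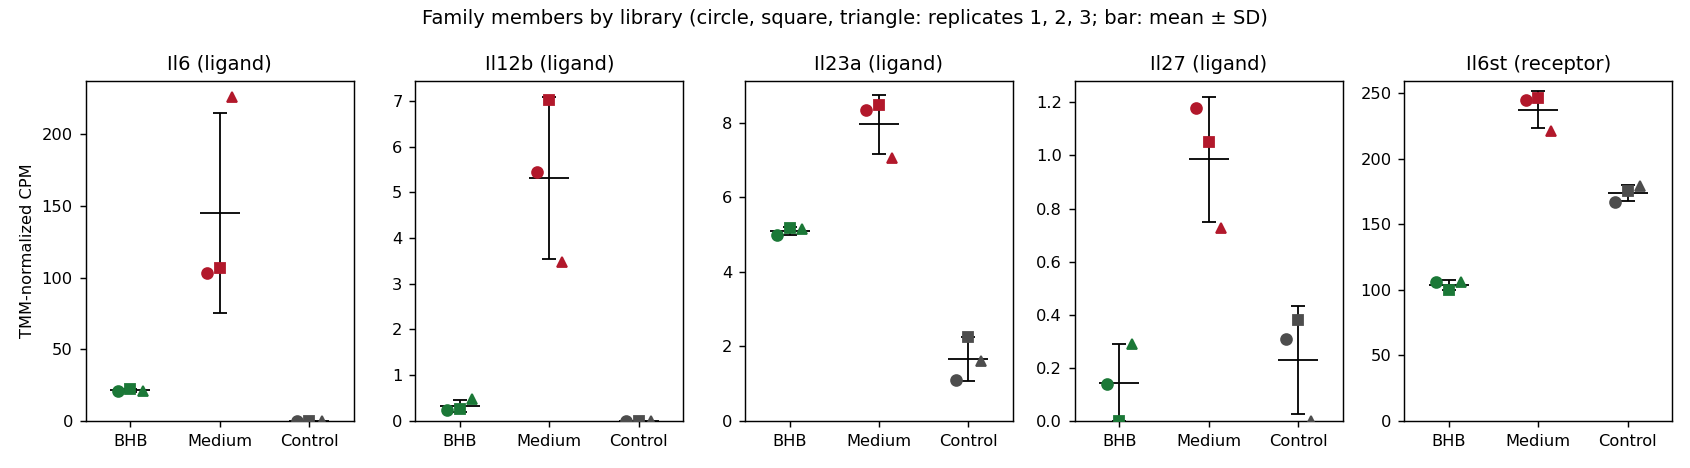
TMM-normalized CPM of the 4 ligand genes and the receptor gene Il6st in each of 9 libraries, with points for libraries and bars for the mean ± SD of 3. In every panel the BHB points lie below the Medium points, and Il6st in BHB also lies below Control, while Il6, Il12b and Il23a in BHB lie above it.

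Il6 reached 20.6, 22 and 21.1 CPM in BHB, 103, 107 and 226 CPM in Medium, and 0, 0 and 0.108 CPM in Control. The BHB libraries were close together, with a coefficient of variation of 3.33%, while that of Medium was 48.2%, with 5909 counts in replicate 3 and 2961 and 2538 in the others. The quasi-likelihood test of edgeR, with p-values adjusted over all genes tested, gave a log2 fold change of -2.77 for BHB against Medium (standard error, SE, 0.241, adjusted p = 1.75e-07). It was -2.30 without Medium replicate 3 (edgeR adjusted p = 1.46e-14). Medium held 11408 counts over its libraries against 3 in Control, all in replicate 3, a ratio of 4090 after scaling (95% interval 1400 to 19800). It was 2950 without Medium replicate 3 (95% interval 1010 to 14300), and at least 2750 without Control replicate 3, which leaves Control at 0. BHB held 1848 counts against the same 3, a ratio of 602 (95% interval 206 to 2920), and both intervals cover counting error only. They take the 3 Control counts as plain read counts, which low values in this table may not be (see Il27 below). Il6 was thus neither at its LPS level nor at its resting level in BHB cells.

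Il12b, the gene of the p40 chain shared by IL-12 and IL-23, was expressed at a lower level and had the largest fold decrease of the 5. It had 7, 8 and 13 counts in BHB, 157, 167 and 91 counts in Medium, and 0 counts in each Control library. As CPM these were 0.246, 0.26 and 0.471 in BHB and 5.44, 7.01 and 3.47 in Medium. The highest BHB library was far below the lowest Medium library, and Medium replicate 3, the highest for Il6, was the lowest for Il12b. The log2 fold change of BHB against Medium was -4.02 (SE 0.386, edgeR adjusted p = 1.49e-06), and -4.25 without Medium replicate 3. Because Control was at 0, its folds are lower bounds set against 3 counts over the group: at least 149-fold higher in Medium and at least 9.12-fold higher in BHB. These bounds too take low values as plain read counts.

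Il23a, the gene of the p19 chain of IL-23, changed least with BHB. It had 4.99, 5.19 and 5.15 CPM in BHB, 8.34, 8.48 and 7.06 CPM in Medium, and 1.09, 2.26 and 1.62 CPM in Control. The 3 groups did not overlap, and BHB lay between the others. The log2 fold change was -0.64 for BHB against Medium (SE 0.191, edgeR adjusted p = 0.00874), 2.24 for Medium against Control (SE 0.215, edgeR adjusted p = 2.92e-07) and 1.60 for BHB against Control (SE 0.218, edgeR adjusted p = 1.47e-05). The partner chains of IL-23 therefore moved by different amounts. Per kb of exon, Il12b stood at 0.0563, 0.0571 and 0.105 of the Il23a level in BHB, against 0.744, 0.944 and 0.562 in Medium and 0 in each Control library. The ratio was lower in all 3 BHB libraries than in any Medium library (exact permutation test, 2-sided p = 0.1, the smallest that 3 libraries against 3 allow). Il23a thus exceeded Il12b by 9.56-fold to 17.8-fold per kb in BHB, against 1.06-fold to 1.78-fold in Medium.

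Il27, the gene of the p28 chain of IL-27, was close to the limit of detection in all groups. It had 4, 0 and 8 counts in BHB, 34, 25 and 19 in Medium, and 8, 12 and 0 in Control. The values of BHB and Control overlapped, and those of Medium lay above both. BHB against Medium had a log2 fold change of -2.79 (SE 0.763, edgeR adjusted p = 0.00501), which was -3.78 without BHB replicate 3 and -2.18 without BHB replicate 2, still called in each. Medium against Control had 2.05 (SE 0.698, edgeR adjusted p = 0.0162), a call lost without Medium replicate 1 (edgeR adjusted p = 0.0509) or without Control replicate 3 (adjusted p = 0.0549). BHB against Control was not called, at -0.73 (SE 0.94, edgeR adjusted p = 0.507), and with 12 and 20 counts over the groups the depth could not show a small difference. Values of 1 occur 335 times in the whole table and values of 2 occur 1675 times, an order that plain read counts do not usually show, so these low values carry an error that cannot be given here. Apobr, which overlaps its end, did not follow it: 170, 157 and 153 CPM in BHB against 155, 139 and 140 CPM in Medium (log2 fold change 0.15, edgeR adjusted p = 0.0451, and 0.0651 without Medium replicate 3).

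Ebi3, the gene of the partner of p28, was by contrast abundant. It reached 113, 127 and 130 CPM in BHB, 280, 280 and 225 CPM in Medium, and 28.8, 24.3 and 25.8 CPM in Control. The groups did not overlap, and the log2 fold change was -1.09 for BHB against Medium (SE 0.0871, edgeR adjusted p = 7.53e-08) and 3.32 for Medium against Control (SE 0.0971, edgeR adjusted p = 9.52e-13). Per kb of exon, Ebi3 exceeded Il27 by 210-fold to 274-fold in the Medium libraries, and the ratio of Il27 to Ebi3 was at most 0.00253 in BHB against at least 0.00365 in Medium (exact permutation test, 2-sided p = 0.1, the smallest possible). Il12a, the gene of the p35 chain that completes IL-12, was not analysed here.

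Il6st, the gene of gp130, was the receptor member, with the smallest change of the 5 with LPS and a fall with BHB that lay between those of Il23a and Il6. It had 106, 99.5 and 106 CPM in BHB, 245, 246 and 221 CPM in Medium, and 167, 175 and 179 CPM in Control. The groups did not overlap, with Medium highest and BHB lowest. Medium stood 1.37-fold above Control (log2 fold change 0.45, SE 0.0582, edgeR adjusted p = 6.55e-06). BHB stood 2.29-fold below Medium (log2 fold change -1.20, SE 0.0592, edgeR adjusted p = 5.47e-10) and 1.68-fold below Control (log2 fold change -0.75, SE 0.059, edgeR adjusted p = 6.27e-08). It was the single member called lower in BHB than in untreated cells, where 33.3% of all tested genes were called lower. The rise with LPS was 0.18 on the log2 scale when counts were scaled to library sizes alone (edgeR adjusted p = 0.00464), a scaling that shifts the median of all genes to -0.273.

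Set against each other, the ligand genes covered a much wider range than the receptor gene. The comparison of Medium with Control asked what LPS itself changes. All 4 ligand genes were called higher in Medium and did not overlap with Control. Of all tested genes, 36.3% were called higher and 36.3% lower there, and 37.3% were higher and 37.8% lower without overlap. The median log2 fold change of the ligand genes was 6.22, or 4.73 with Il12b at its lower bound and Il6 at its ratio of counts, against -0.005 over all tested genes. Il6, Il12b and Il27 passed the filter through the groups where they were high, so these counts and medians are descriptions. With BHB added the median of the ligand genes was -2.78, against 0.004 over all tested genes. The mean log2 CPM of the 4 ligand genes minus that of Il6st was -6.02, -6.27 and -5.61 in BHB, -4.81, -4.74 and -4.75 in Medium, and -9.58, -9.33 and -9.81 in Control. The ligands were thus nearest to the receptor in level in Medium, farthest in Control, and in between in BHB. These levels were not corrected for length. Il12b in every Control library, Il6 in Control replicates 1 and 2, and Il27 in Control replicate 3 and BHB replicate 2 had 0 counts. Their log2 CPM of -3.8 was set by the prior count, so the sizes of the differences from Control depend on it. Against Control, 3 ligand genes were called higher in BHB, Il27 was not called and Il6st was called lower, where 33.4% of all tested genes were called higher and 33.3% lower. Groups without overlap were found there for 37.6% of genes with BHB higher and 37.7% with BHB lower.

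The order of the members changed with treatment when levels were given per kb of exon. In Medium, Il6 was highest at 59.7 ± 28.8 CPM per kb, above Il6st at 21.4 ± 1.3, Il23a at 3.54 ± 0.349, Il12b at 2.7 ± 0.901 and Il27 at 0.964 ± 0.228 (mean ± SD, n = 3). Il23a and Il12b overlapped there, and the other neighbours did not. In BHB, Il6st at 9.34 ± 0.318 and Il6 at 8.75 ± 0.291 CPM per kb overlapped at the top, followed by Il23a at 2.27 ± 0.0484, with Il12b at 0.166 ± 0.0642 and Il27 at 0.141 ± 0.142 overlapping at the bottom. In Control, Il6st led at 15.7 ± 0.571 CPM per kb, followed by Il23a at 0.738 ± 0.262, Il27 at 0.226 ± 0.199, Il6 at 0.0149 ± 0.0257 and Il12b at 0. Il27 and Il6 overlapped in Control, as did Il6 and Il12b, because Il6 was at 0 in Control replicates 1 and 2. Per library, Il6 stood at 0.891 to 1.01 of the Il6st level in BHB, against 1.91 to 4.67 in Medium. Exon lengths are the union over all annotated transcripts, 11099 bases from 10 transcripts for Il6st, and without the correction for length the Medium means were 238 CPM for Il6st and 145 CPM for Il6, with Il6 above Il6st in replicate 3 alone (226 and 221 CPM).

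**Figure D2:**
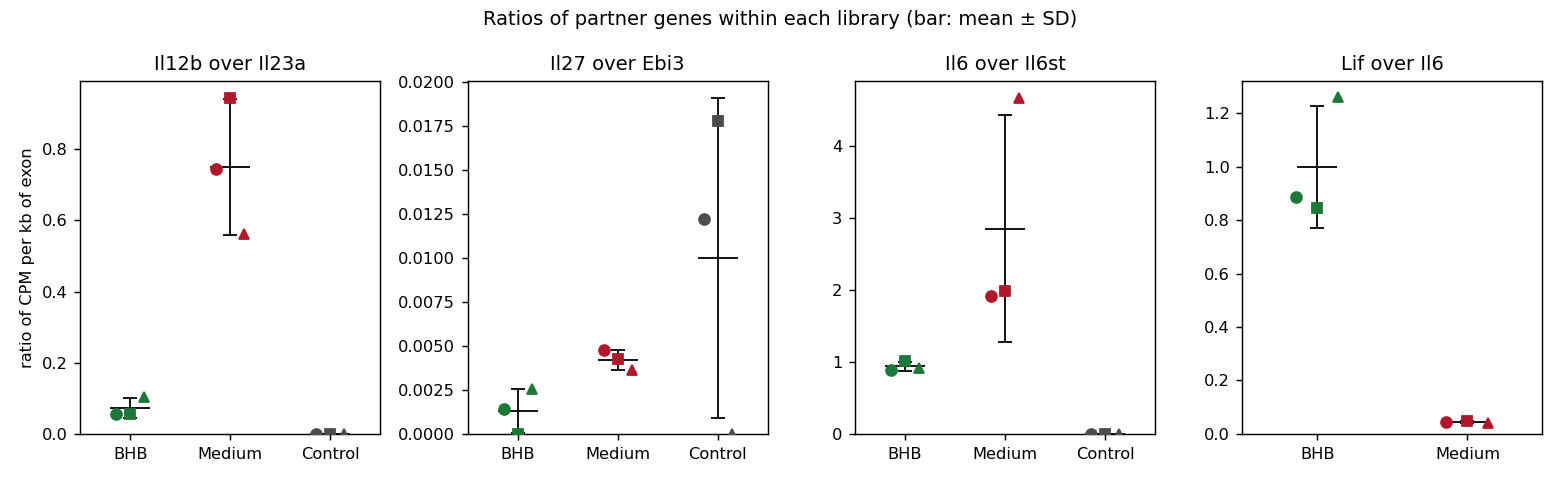
Ratio of CPM per kb of exon within each library for Il12b over Il23a, Il27 over Ebi3, Il6 over Il6st and Lif over Il6, with points for libraries and bars for the mean ± SD of 3. Il12b over Il23a lies at 0.0563 to 0.105 in BHB and 0.562 to 0.944 in Medium, and Lif over Il6 at 0.846 to 1.26 in BHB and 0.0415 to 0.0473 in Medium. Control is left out of the last panel because Il6 was at 0 in 2 Control libraries.

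Other ligand genes of the family did not all follow the members. Of 5 other ligand genes tested, 3 were called lower in BHB than in Medium and 1 was called higher, and LPS gave 5 higher and 0 lower (median log2 fold changes -0.91 and 2.81). The shares over all tested genes were 33.6% lower and 33.2% higher with BHB, and 36.3% each way with LPS. Lif, which encodes leukemia inhibitory factor, was the ligand gene called higher with BHB. It had 32.8, 33.4 and 47.6 CPM in BHB, 8.38, 9.03 and 16.8 CPM in Medium, and 1.67, 1.56 and 2.78 CPM in Control. The groups did not overlap and stood in the order Control, Medium, BHB. The log2 fold change of BHB against Medium was 1.73 (SE 0.231, edgeR adjusted p = 1.22e-05), or 2.12 without Medium replicate 3. Per kb of exon, Lif stood at 0.846 to 1.26 of the Il6 level in BHB, against 0.0415 to 0.0473 in Medium (exact permutation test, 2-sided p = 0.1, the smallest possible). The Lif 3′ UTR held 5 copies of TATTTAT, as many as that of Il23a, and that of Ebi3 held 0.

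Osm, the gene of oncostatin M, had 28.6, 27.3 and 31.4 CPM in BHB, 41.8, 52.8 and 70 CPM in Medium, and 41.8, 38.1 and 36.8 CPM in Control. BHB lay below both other groups, and Medium and Control met at their edges. The log2 fold change was -0.91 for BHB against Medium (SE 0.138, edgeR adjusted p = 4.13e-05), or -0.70 without Medium replicate 3. Its rise of 0.49 with LPS (edgeR adjusted p = 0.00455) was not called with library sizes alone (0.24, adjusted p = 0.202). Clcf1, a further gp130 ligand gene, had 5 to 19 counts per library in BHB and Medium and was not called between them (log2 fold change 0.55, SE 0.576, edgeR adjusted p = 0.416). Cntf, the ciliary neurotrophic factor gene, had 1 to 4 counts per BHB library and 21 to 58 per Medium library, a log2 fold change of -3.91 (edgeR adjusted p = 0.00219), or -3.24 without Medium replicate 3. Medium replicate 3 held the highest value of the group for Il6, Lif, Osm and Cntf, and the lowest for Il12b, Il23a, Il27, Ebi3 and Il6st. The part of that library in the results was not tested beyond the values given without it.

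**Figure D3:**
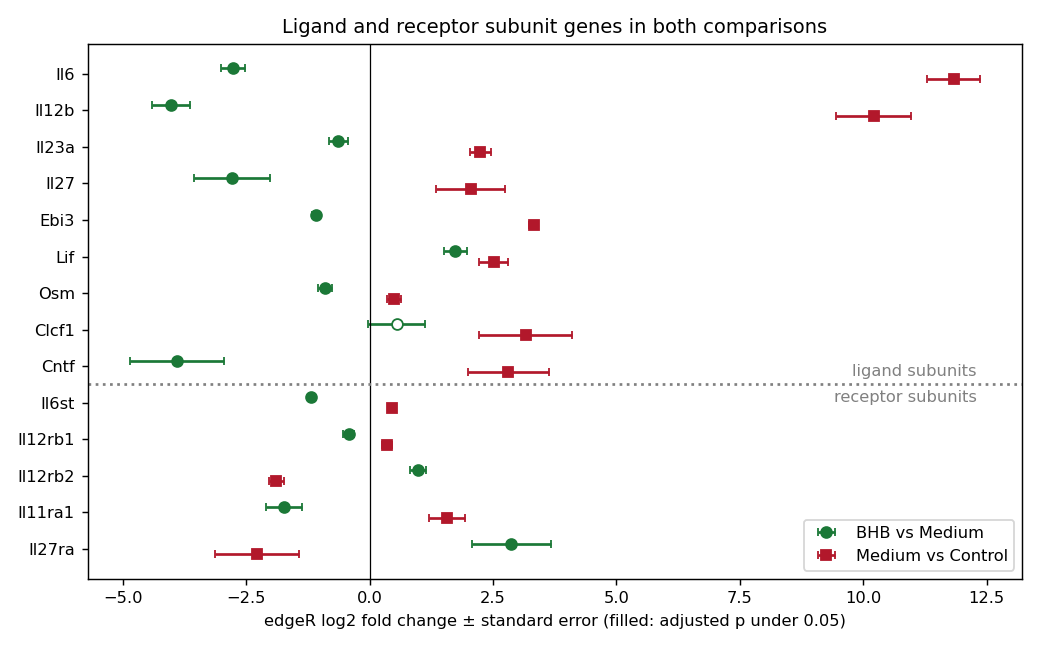
edgeR log2 fold changes with SEs for 9 ligand genes and 5 receptor genes, for BHB against Medium (circles) and Medium against Control (squares), with filled symbols for an adjusted p under 0.05. The 4 ligand members lie left of 0 with BHB and right of 0 with LPS, while Lif lies right of 0 in both, at 1.73 and 2.51. With LPS, the Il12b and Il6 points are fits against 0 and 3 counts over the Control group, so their distance from 0 is no bound. Both comparisons share the Medium libraries.

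Among 4 other receptor genes tested, 2 were called higher and 2 lower in BHB against Medium and in Medium against Control (median log2 fold changes 0.28 and -0.77). Over all tested genes, the shares were 33.2% higher and 33.6% lower with BHB, and 36.3% each way with LPS. Il12rb2, the signalling chain of the IL-12 receptor, had 5.58, 6.85 and 6.6 CPM in BHB, 2.84, 3.32 and 3.51 CPM in Medium, and 12.8, 12.7 and 10.4 CPM in Control. Medium was lowest and the groups did not overlap. Its log2 fold change was 0.98 for BHB against Medium (SE 0.156, edgeR adjusted p = 6.86e-05) and -1.90 for Medium against Control (SE 0.152, edgeR adjusted p = 4.62e-08). Il12rb1, the chain that IL-12 and IL-23 receptors share, had 13.9, 11.4 and 12.9 CPM in BHB, 17.7, 17.8 and 15.9 CPM in Medium, and 12.8, 13.3 and 14.2 CPM in Control. BHB was below Medium (log2 fold change -0.43, edgeR adjusted p = 0.00219), and the rise of 0.35 with LPS was not called with library sizes alone (0.08, edgeR adjusted p = 0.511).

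Il27ra, which encodes the chain that pairs with gp130 in the IL-27 receptor, had 20, 29 and 18 counts in BHB, 0, 0 and 8 in Medium, and 21, 15 and 7 in Control. Every BHB library was above every Medium library (log2 fold change 2.87, SE 0.803, edgeR adjusted p = 0.00583). All Medium counts were in replicate 3, so without it Medium is at 0 and the fitted 7.44 is no bound, while the fold change was 2.24 without Medium replicate 1. The fall with LPS, -2.28 (edgeR adjusted p = 0.0265), was lost when Medium replicate 1, Medium replicate 2, Control replicate 1 or Control replicate 2 was left out (log2 fold changes -1.66, -1.77, -1.82 and -2.32, adjusted p from 0.0506 to 0.116), and fitted at -6.85 without Medium replicate 3. Il11ra1, the IL-11 receptor gene, had 10 to 20 counts per BHB library, 39 to 49 per Medium library and 12 to 19 per Control library. Lifr, the receptor chain for LIF, was not tested, with at most 4 counts in a library, and Osmr and Il23r were not analysed here.

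Genes of the proteases that shed the IL-6 receptor, and of the iRhom proteins that carry ADAM17, were higher in BHB than in Medium. Of 4 tested genes, 4 were called higher in BHB than in Medium (33.2% of all tested genes were), and in Medium 1 was called higher and 2 lower than in Control (median log2 fold changes 0.42 and -0.4). Medium against Control had 36.3% of all tested genes called each way. In BHB against Control, 1 of the 4 was called higher and 3 were not called, where 33.4% of all tested genes were called higher. Adam17, the main sheddase of IL-6R, had 262, 262 and 305 CPM in BHB, 194, 206 and 180 CPM in Medium, and 248, 253 and 255 CPM in Control. It was lowest in Medium, with a log2 fold change of 0.52 for BHB against Medium (SE 0.0683, edgeR adjusted p = 1.18e-05). Adam10 had 0.32 (edgeR adjusted p = 4.94e-05), and Rhbdf2, an iRhom gene, 0.18 (edgeR adjusted p = 0.0161). Adam10 in BHB, at 154 to 159 CPM, lay below Control, at 163 to 169 CPM.

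Of 9 genes of JAK kinases and STAT factors, 6 were called lower and 2 higher in BHB than in Medium (median log2 fold change -0.56), and LPS gave 8 higher and 1 lower (median 0.55). Shares over all tested genes were 33.6% lower and 33.2% higher with BHB, and 36.3% each way with LPS. Stat3, the main STAT of IL-6 signalling, had 174, 166 and 175 CPM in BHB, 180, 173 and 140 CPM in Medium, and 119, 116 and 119 CPM in Control. BHB and Medium overlapped, with a log2 fold change of 0.06 (SE 0.0766, edgeR adjusted p = 0.477). Stat2 fell by 1.66 and Jak2 by 0.56 on the log2 scale with BHB, while Stat6, which serves IL-4, stood at 0.73 and Jak1 at 0.25. Jak1 stood at 0.17 without Medium replicate 3.

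Of 8 brakes on this signalling, 4 were called lower and 2 higher with BHB, and 5 were higher and 1 lower with LPS (median log2 fold changes -0.2 and 0.36). Without Medium replicate 3, 3 brakes were called higher with BHB. For the brakes and for the STAT3 targets below, the shares over all tested genes were 33.6% lower and 33.2% higher with BHB. With LPS they were 36.3% each way, so calls in both directions were common. Socs3, the inhibitor that binds gp130 and is itself a STAT3 target, had 59.6, 56.8 and 57.5 CPM in BHB, 144, 172 and 257 CPM in Medium, and 13.3, 15.1 and 16 CPM in Control. Its order across groups was that of Il6, and Medium replicate 3 was again the highest. The log2 fold change was -1.72 with BHB (SE 0.153, edgeR adjusted p = 2.17e-07), or -1.45 without Medium replicate 3. Cish fell by 0.26 and Pias1 by 0.53, while the phosphatase genes Ptpn6 and Ptpn2 stood at 0.53 and 0.37. Ptpn6 stood at 0.36 without Medium replicate 3. Of 16 STAT3 target genes, 7 were called lower and 4 higher with BHB (median -0.11), and 11 higher and 2 lower with LPS (median 0.85), and without Medium replicate 3 there were 5 higher with BHB and 3 lower with LPS. Junb fell by 1.18, Tnfaip3 by 1.04, Pim1 by 0.89 and Timp1 by 2.05 on the log2 scale, while Fos was higher by 1.22, Vegfa by 0.87, Myc by 0.85 and Hif1a by 0.34. Socs3, Fos, Bcl3 and Cebpd stand in more than 1 list. The STAT3 targets were listed by role, and the part of STAT3 in their values was not tested.

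Factors that transcribe the ligand genes were mostly lower with BHB, but Nfkbiz was not called. Of 16 tested, 10 were called lower and 3 higher in BHB than in Medium (median -0.23), and LPS gave 10 higher and 2 lower (median 0.63). Without Medium replicate 3 these counts were 9 lower and 4 higher with BHB, and 11 higher and 3 lower with LPS. For this list and for the factors that hold the ligand genes back, the shares over all tested genes were 33.6% lower and 33.2% higher with BHB. With LPS they were 36.3% each way. Nfkbiz, which encodes IκBζ, a nuclear coactivator needed for Il6 and Il12b transcription in mouse macrophages, had 230, 239 and 258 CPM in BHB, 252, 254 and 320 CPM in Medium, and 35.9, 39.7 and 36.2 CPM in Control. Its BHB and Medium libraries overlapped, and it was not called (log2 fold change -0.18, SE 0.0837, edgeR adjusted p = 0.0642). Cebpb, which encodes a C/EBP factor that activates Il6, had 25.7, 20.4 and 24 CPM in BHB, 81.6, 71.7 and 65.7 CPM in Medium, and 25.1, 29.3 and 29 CPM in Control. Its log2 fold change with BHB was -1.65 (SE 0.101, edgeR adjusted p = 4.85e-09). Of the NF-κB subunits, Nfkb2 fell by 1.79, Rel by 0.68, Rela by 0.42 and Nfkb1 by 0.26, while Fos, Spi1 and Irf8 were called higher, at 1.22, 0.42 and 0.38. Irf8 stood at 0.22 without Medium replicate 3. Among 6 factors that hold the ligand genes back, 4 were called lower with BHB and 5 higher with LPS (median log2 fold changes -0.41 and 1.6). Atf3 stood at -0.72 and Nfkbia at -0.48 with BHB, or at -0.84 and -0.20 without Medium replicate 3. Il10ra was called higher at 0.36 (0 genes of the list higher without Medium replicate 3). Il10 itself had 5, 2 and 9 counts in BHB, 0, 0 and 3 in Medium and 0 in each Control library, and did not pass the filter.

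**Figure D4:**
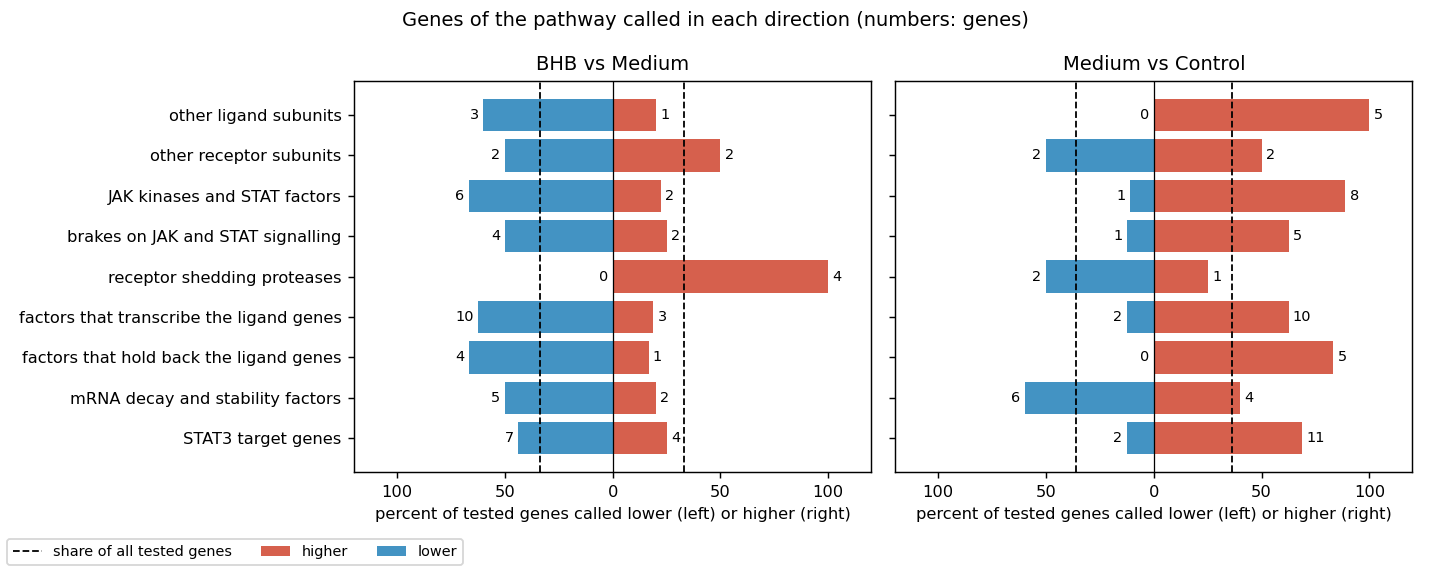
Percent of the tested genes of 9 lists called lower (left of 0) and higher (right of 0) for BHB against Medium and Medium against Control, with the number of genes beside each bar and dashed lines at the shares over all tested genes (33.6% and 33.2%, and 36.3% on both sides). Receptor shedding (proteases and iRhoms) is the list with 4 of 4 genes called higher with BHB, and other ligand subunits the list with 5 of 5 called higher with LPS.

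Factors that decay or stabilize cytokine mRNA were split. Of 10 tested, 5 were called lower and 2 higher in BHB than in Medium (median -0.13), and LPS gave 4 higher and 6 lower (median -0.21). Over all tested genes, the shares were 33.6% lower and 33.2% higher with BHB, and 36.3% each way with LPS. Zfp36, the gene of tristetraprolin, a decay factor that binds AU-rich RNA, fell by 1.5 with BHB and was higher by 4.20 with LPS. Zc3h12a, the gene of Regnase-1, an endonuclease that cleaves Il6 mRNA, had 29.4, 28.5 and 28.1 CPM in BHB, 43.3, 48.5 and 62.8 CPM in Medium, and 8.61, 8.19 and 7.76 CPM in Control. The decay genes Zc3h12c and Rc3h2 fell by 0.98 and 1.30 with BHB. Arid5a, whose product protects Il6 mRNA from decay, had 32.5, 31.4 and 32.5 CPM in BHB, 19.8, 20.9 and 25.6 CPM in Medium, and 40.6, 43.1 and 37.5 CPM in Control. For Zc3h12a and Arid5a, BHB thus lay between Control and Medium, in opposite directions, and their groups did not overlap.

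Over the 9 libraries, the members differed in how alike their patterns of log2 CPM were. Il6 was closest to Il23a (Pearson r = 0.958) and Il12b (0.904) and far from Il6st (0.102), while Il27 had 0.692 with Il12b and 0.68 with Il6st. Outside the family, and among genes whose log2 CPM averaged at least 3, the ones most like Il6 were Cdk2ap2, Lcn2 (lipocalin 2) and Tnfrsf1b (TNF receptor 2), with r from 0.994 to 0.996. For Il12b they were Fam214a, Csnk2a1 (a casein kinase 2 catalytic subunit) and Crybg3, from 0.997 to 0.998. For Il23a they were Trim13, the autophagy gene Atg12 and the phosphatase gene Dusp14, from 0.986 to 0.99. For Il6st they were the deubiquitinase gene Otud4, Gpatch8 and Lhfpl2, from 0.992 to 0.997, and for Il27 they were Pcmtd2, Dmtf1 and Cfap97, from 0.891 to 0.943. The values are descriptions over 9 libraries in 3 groups that differ in most genes, with the same scaling for every gene.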

How the data were processed

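RNA of BV-2 cells was sequenced in 9 libraries, grouped by the submitters' titles. The authors deposited 1 table of whole-number counts per gene symbol, not normalized or pooled. The methods name Skewer, STAR on GRCm38 with GENCODE M21 in strand-specific mode and StringTie, whereas HISAT2, Trimmomatic, StringTie and FastQC 0.11.5 are listed by the submitters' processing notes. The sources used here do not give how reads were counted. The authors used DESeq2. Genes were kept by filterByExpr (10413 of 12413), scaled with TMM factors and compared in edgeR 4.0.16 (glmQLFit, glmQLFTest; R 4.3.3), where a common model held the 9 libraries, with Benjamini-Hochberg adjustment over all tested genes and a threshold of 0.05. A standard error is the log2 fold change over the root of F. Log2 CPM used a prior count of 2. Levels per kb used the union of annotated exons. The filter, the fit and the calls were tested on simulated counts. A group at 0 was compared through a floor of 3 counts, and such bounds and counting intervals (95%) cover counting error only. Members were given by symbol. Other genes named are up to 4 of each list with the smallest p, those moving against their list, and the 3 genes most like each member. Il6ra, Il12a, Il23r and Osmr were not analysed here. Some genes named (Apobr, Clcf1, Il10, Lifr, P2ry12, Nfkbiz, Stat3, Arid5a and others of the lists) fall outside this rule and were chosen after their values were seen. The members and lists were chosen with earlier results of these data known. Alternatives were DESeq2 1.42.0, limma-voom (limma 3.58.1), RLE factors, library sizes alone, other filters, a replicate block, fits of the 2 compared groups alone, a 2-fold threshold, a prior count of 0.5 and leaving out each library. Lists, listed genes and the Il6 ratio without Medium replicate 3, and that ratio without Control replicate 3, were added after seeing the data. The values of 1 gene of the lists are not reported here.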

Additional observations from a re-analysis of the deposited data

How the results depend on the processing

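The directions of all 5 members in each comparison held under each alternative that gave a value. The 5 calls with BHB against Medium held under each of these but the 2-fold minimum, which Il23a missed. Left-out libraries moved the fitted Il6 log2 fold change with LPS between 11.23 and 14.98. Without Control replicate 3, Control is at 0 counts, so the fitted value there is no bound, and the floor gives at least 2750-fold. The call of Il27 with LPS was lost without Medium replicate 1 (1.90) or Control replicate 3 (1.49). Asking for at least 10 counts in every library removes Il6, Il12b and Il27, and then 2 members were called higher with LPS, 2 lower with BHB and 1 higher in BHB than in Control. A 2-fold minimum left 806 higher and 1142 lower with LPS, with BHB 806 and 520, and for BHB against Control 700 and 682. Il6st was then not called with LPS or against Control (0 members lower). With library sizes alone 2276 genes were higher and 5375 lower with LPS, 4296 higher and 2601 lower with BHB, and 2529 higher and 4414 lower in BHB than in Control, against 3777 and 3784, 3461 and 3503, and 3478 and 3470 with TMM. A prior count of 0.5 moved the ligand minus Il6st difference to 5.87 with LPS and 4.41 for BHB against Control, against 4.81 and 3.61. Leaving out a library, the calls ranged from 3564 to 3921 higher and 3535 to 4002 lower with LPS, and from 3155 to 3689 higher and 3233 to 3693 lower with BHB, and members called higher with LPS from 4 to 5.

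The replicate numbers did not pair the libraries: correlations of same-numbered deviations ran from -0.071 to 0.063. With the replicate block the log2 fold change of Il6 with BHB was -2.67 and no call on a member changed, with 3733 genes called higher and 3755 lower with LPS and 3429 and 3455 with BHB. No library correlated with its own number above 0.1. Depth limits Il27, Il27ra, Clcf1 and Il12b outside Medium, with at most 34 counts in any of those libraries.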
